A study of Arabidopsis thaliana with 15 samples.

Results

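The 55 genes of Arabidopsis thaliana that the deposited table describes as MATE efflux proteins were followed through closed flower buds of 5 genotypes. They were taken by searching the table's description column for the words MATE efflux, upper and lower case alike, which found 55 of 33323 genes. MATE proteins (multidrug and toxic compound extrusion) are membrane antiporters that move small organic molecules out of the cytoplasm, into the vacuole or out of the cell, in exchange for protons or sodium ions. In Arabidopsis the characterised ones carry plant toxins, flavonoid precursors, citrate for iron transport, salicylic acid and abscisic acid, and most of the family has no assigned substrate. The search goes by description, so DTX35 (AT4G25640), a carrier of the same family that the table describes in other words, is not among the 55.

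The 15 libraries, 3 per genotype, came from unopened flowers of 5-week-old untreated plants in the Col0 background, grown in a greenhouse in long days. The genotypes were the triple mutant elf6-3ref6Cjmj13G, the double mutant elf6-3ref6C, the single mutants ref6C and ref6-3, and the wild type (WT). REF6, ELF6 and JMJ13 are JmjC-domain demethylases that remove methyl groups from lysine 27 of histone H3, a mark of silenced genes laid down by Polycomb proteins. All 4 mutants carry a ref6 allele, and the double and triple mutants carry elf6-3 in addition. The sources used here do not give the lesion of each allele or say that replicates were separate plants.

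Total counts per library lay between 26009591 and 34140165. ELF6 averaged 8.67 CPM (TMM-normalized counts scaled to library size) in the triple and 2.53 CPM in the double mutant, against 56.8 CPM in ref6C, 60.4 CPM in ref6-3 and 61.3 CPM in WT. REF6 averaged 32.9 to 36.9 CPM over the 4 mutants and 69.4 CPM in WT. JMJ13 (AT5G46910) averaged 9.04 CPM in the triple mutant, 18.3 to 22.1 CPM in the other mutants and 24.8 CPM in WT. Reads fell in 29547 genes in ref6C replicate 3 and in 25055 to 25712 genes in each of the other 14 libraries. Leaving out ref6C replicate 3 lost 12 calls of members. Values with and without it are given for TT12 and for the count of members lower in the double mutant than in ref6C. Of the cell types a bud can hold, mature pollen and tapetum (the nurse tissue of pollen) were followed by marker lists. The 13 mature pollen genes summed to 224 to 232 CPM in the triple mutant, 152 to 157 CPM in the double mutant, 564 to 579 CPM in ref6C, 196 to 207 CPM in ref6-3 and 688 to 724 CPM in WT. The 14 tapetum genes summed to 1377 to 1387, 1349 to 1387, 1580 to 1681, 2323 to 2346 and 2282 to 2379 CPM in the same genotypes and order. None of these markers was at 0 in any genotype. VGD1, PPME1 and STP9 made up 82.5% to 85.3% of the pollen sum in each genotype. STP11, BCP1 and ANX2 differed from this sum in how far they fell in ref6C. There STP11 averaged 0.046 CPM against 1.88 CPM in WT, BCP1 0.185 CPM against 2.65 CPM, and ANX2 0.303 CPM against 2.31 CPM. All 3 were at 0.126 CPM or below in the other mutants.

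AT2G04050 belongs to an array of 7 members on chromosome 2, all on the minus strand, that spans 44.9 kb (chr2:1334270-1379130, RefSeq TAIR10.1). From low to high coordinate it holds DTX1 (AT2G04040), AT2G04050, AT2G04066, AT2G04070, AT2G04080, AT2G04090 and AT2G04100. DTX1 is the founding plant member of the family, a plasma membrane carrier known to export plant alkaloids and other toxic compounds. The 250 bases before the annotated start of 4 of these genes are printed because 3 of the genes were nearly silent in WT and rose in the double mutant, while AT2G04080, among them, fell. They are written 5′ to 3′ on the gene's strand from RefSeq TAIR10.1, and capitals mark TGACG, the core of the element bound by TGA-type bZIP factors, here read on the opposite strand as CGTCA.
DTX1 (chr2:1336551-1336800, minus strand): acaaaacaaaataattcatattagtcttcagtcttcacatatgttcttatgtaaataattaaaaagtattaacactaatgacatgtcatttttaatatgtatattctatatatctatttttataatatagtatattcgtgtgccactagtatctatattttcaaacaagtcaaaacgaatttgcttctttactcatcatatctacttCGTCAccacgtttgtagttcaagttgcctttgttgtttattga
AT2G04050 (chr2:1339469-1339718, minus strand): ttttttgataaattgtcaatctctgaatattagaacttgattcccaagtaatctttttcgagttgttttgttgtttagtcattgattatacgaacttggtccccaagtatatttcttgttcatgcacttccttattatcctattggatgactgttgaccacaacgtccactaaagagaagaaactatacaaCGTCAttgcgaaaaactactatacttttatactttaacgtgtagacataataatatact
AT2G04070 (chr2:1355884-1356133, minus strand): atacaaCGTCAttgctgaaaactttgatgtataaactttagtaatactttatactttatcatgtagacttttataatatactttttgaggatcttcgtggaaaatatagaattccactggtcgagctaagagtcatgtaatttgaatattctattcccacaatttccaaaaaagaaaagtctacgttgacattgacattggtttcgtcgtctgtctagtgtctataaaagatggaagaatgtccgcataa
AT2G04080 (chr2:1359404-1359653, minus strand): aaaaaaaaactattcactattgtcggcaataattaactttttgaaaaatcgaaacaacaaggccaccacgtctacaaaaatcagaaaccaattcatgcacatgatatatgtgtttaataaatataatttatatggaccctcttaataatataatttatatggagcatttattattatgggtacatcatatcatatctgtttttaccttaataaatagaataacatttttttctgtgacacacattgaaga

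The first base of the match lies 43 bases before the start in DTX1, 59 in AT2G04050 and 244 in AT2G04070, and the 250 bases of AT2G04080 hold none. In AT2G04050 and AT2G04070 the match stands inside the longest run of letters the pair shares, atacaaCGTCAttgc, which is 15 bases. The longest shared runs of the other 5 pairs are 9 to 12 bases, and whole-stretch identity is 42.0% to 50.7%. TGACG occurred, on either strand, in the 250 bases before 9 of 55 members (16.364%) and before 18.574% of 27441 protein-coding genes. The REF6-binding motif, searched on both strands as CTCTGTTT, CTCTGTTC, CTCTGCTT and CTCTGCTC, occurred before 2 members (3.636%), AT2G04100 and AT4G22790, against 5.772% of all genes. Within 1000 bases it occurred before 11 members (20.0%), among them AT2G04080 and AT2G04100 of the array, against 21.865% of all genes. TGACG occurred within 1000 bases before 25 members (45.455%), against 54.112% of all genes. In the array these were all members but AT2G04080 and AT2G04100, so AT2G04066 and AT2G04090 are among them. AT2G04100 thus has no TGACG in either stretch, although it too was called higher in the double mutant than in WT. The printed genes were chosen by how they responded, so no link between match and direction is read from them. Neither motif contains the other. A match of letters is a description of the sequence and not a binding site.

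AT2G04050 had 6.41, 7.52 and 6.93 CPM in the triple mutant and 12.9, 13.2 and 13.5 CPM in the double mutant. Its level was 0.204, 0.101 and 0.254 CPM in ref6C, 0.15, 0.448 and 0.42 CPM in ref6-3, and 0.202, 0.234 and 0.0726 CPM in WT. The double mutant libraries were the highest, those of the triple mutant lay below them without overlap, and the 3 other genotypes overlapped near the limit of detection. On the log2 scale AT2G04050 was 6.20 ± 0.19 higher in the double mutant than in WT (SE; adjusted p = 1.4e-20, edgeR quasi-likelihood test, Benjamini-Hochberg) and 5.28 ± 0.21 higher in the triple mutant (adjusted p = 5.8e-18). Against ref6C, the difference of the double mutant was 6.13 ± 0.19 (adjusted p = 3.2e-20, edgeR). The triple mutant was lower than the double mutant by -0.93 ± 0.10 (adjusted p = 7.8e-08, edgeR). Neither ref6C (0.08 ± 0.48, adjusted p = 0.92, edgeR) nor ref6-3 (0.95 ± 0.42, adjusted p = 0.08) passed the test against WT. AT2G04050 reached the limit of the filter on low counts in 3 triple, 3 double and 2 ref6-3 libraries and in no ref6C or WT library. A high level in mutants was thus part of how AT2G04050 came to be tested, so no support is drawn from its p-values against WT or ref6C. In the authors' deposited table the log2 fold changes, turned to mutant over WT, were 3.75 in the triple and 4.64 in the double mutant. Deposited values were smaller than those here for genes with few counts, such as DTX1, with 1.54 in the double mutant. Only their direction is therefore compared.

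DTX1 had no count in any WT or ref6-3 library, so its folds are lower bounds against a floor of 3 counts summed over the WT group, for counting error only. Its CPM was 0.393, 0.257 and 0.281 in the triple mutant, 0.976, 0.78 and 0.556 in the double mutant and 0.102, 0 and 0.109 in ref6C. These rest on 28, 64 and 6 counts over the 3 libraries of each. DTX1 was at least 23-fold higher in the double mutant and at least 9.49-fold higher in the triple mutant than in WT. Both rises passed the test (adjusted p = 8.3e-08 and 3e-05, edgeR). DTX1 reached the limit of the filter on low counts (0.347 CPM) in 3 double and 1 triple mutant libraries and in no other. A high level in these mutants was part of how DTX1 came to be tested, so no support is drawn from its p-values against WT or ref6C. The ref6C call against WT rested on those 6 counts (adjusted p = 0.036, edgeR) and was lost when any 1 of 5 libraries was left out, namely WT replicate 1, 2 or 3 or ref6C replicate 1 or 3, with an adjusted p of up to 0.104. DTX1 was higher in the double mutant than in ref6C by 3.37 ± 0.51 on the log2 scale (adjusted p = 5.1e-06, edgeR).

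AT2G04070 had 3, 6 and 11 counts in the triple mutant and 32, 24 and 31 counts in the double mutant. There was 1 count in each ref6C library, 1 in ref6-3 over all 3 libraries and 0 in WT. It was at least 31.2-fold higher in the double mutant and at least 6.78-fold higher in the triple mutant than in WT (adjusted p = 1.2e-09 and 7.3e-05, edgeR), against the same floor. The ratio of the double mutant to ref6C was 29.6, with a 95% counting interval of 9.79 to 146. AT2G04070 was lower in the triple than in the double mutant by -2.18 ± 0.35 on the log2 scale (adjusted p = 3.9e-05, edgeR), and the libraries of the pair did not overlap. AT2G04070 reached the filter's limit only in the 3 double mutant libraries, so a high level there was part of how it came to be tested. No support is drawn from these p-values.

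The other 2 tested members of the array had counts in every WT library. AT2G04080 averaged 4.79 ± 0.61 CPM in the triple mutant, 6.29 ± 0.41 in the double mutant, 4.05 ± 0.24 in ref6C, 4.84 ± 0.39 in ref6-3 and 7.69 ± 0.17 in WT (SD, n = 3 each). It fell in all 4 mutants, by -0.29 ± 0.09 on the log2 scale in the double mutant and -0.93 ± 0.10 in ref6C (adjusted p = 0.0049 and 9.5e-09, edgeR). Between mutants AT2G04080 was higher in the double mutant than in ref6C by 0.63 ± 0.10 (adjusted p = 4.2e-06) and lower in the triple than in the double mutant by -0.40 ± 0.10 (adjusted p = 0.0036). AT2G04100 averaged 0.865 ± 0.15, 1.53 ± 0.44, 0.726 ± 0.20, 0.578 ± 0.23 and 1.01 ± 0.21 CPM in the triple mutant, the double mutant, ref6C, ref6-3 and WT. AT2G04100 was higher in the double mutant than in ref6C by 1.06 ± 0.26 (adjusted p = 0.00097, edgeR), and its calls against WT, higher in the double mutant and lower in ref6-3, were lost under 5 and 8 of 21 alternative settings. Like AT2G04080, it was lower in the triple than in the double mutant (-0.82 ± 0.25, adjusted p = 0.02, edgeR), a call lost under 5 settings. AT2G04066 and AT2G04090 had too few counts to be tested. AT2G04066 had 0 counts in the triple mutant, 0, 0 and 4 in the double mutant, 11, 9 and 0 in ref6C, 0, 9 and 8 in ref6-3, and 11, 5 and 0 in WT. For counting error alone this puts AT2G04066 at least 5.24-fold lower in the triple mutant than in WT. WT replicate 3 was itself at 0, so this bound does not cover the spread between libraries. In addition, 67.45% of the 50-base windows in its exons are shared with AT2G04080.

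**Figure D1:**
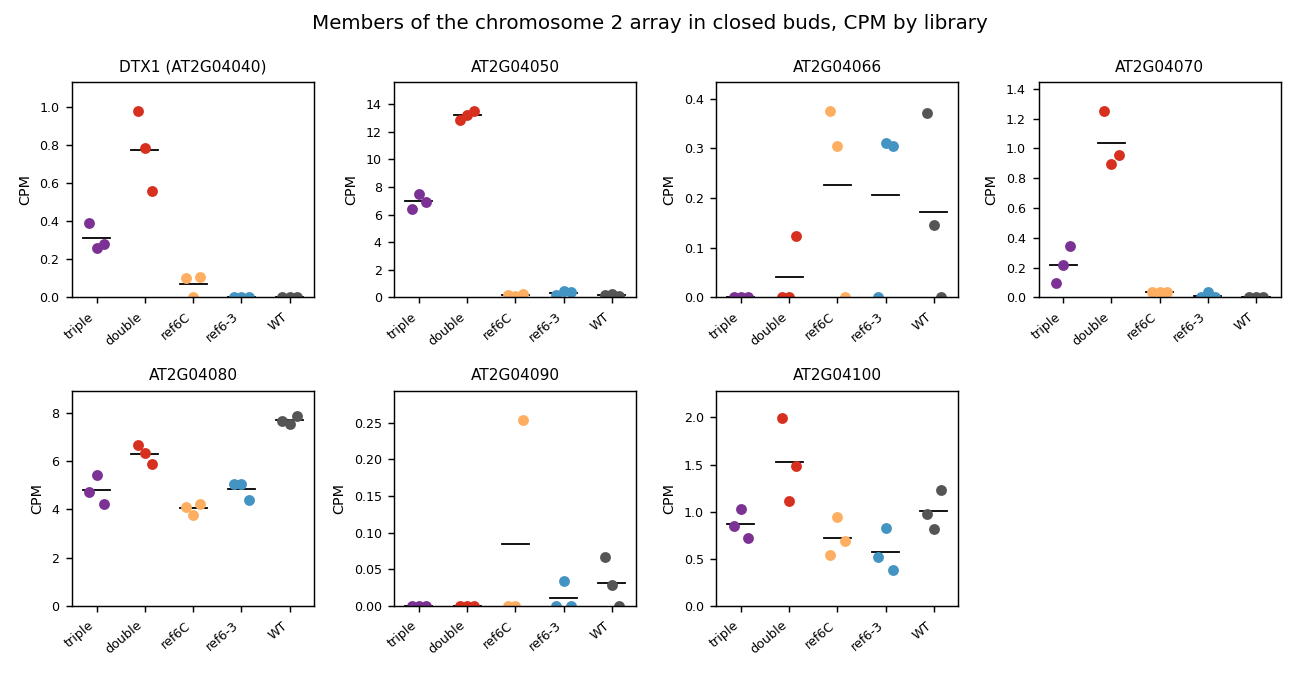
CPM of the chromosome 2 array members by genotype, 1 panel a gene with its own linear axis from 0; each point is 1 library and each bar the mean of 3. AT2G04050 reaches 12.9 to 13.5 CPM in the double mutant and 6.41 to 7.52 CPM in the triple mutant, with the other 3 genotypes near 0, while AT2G04080 is highest in WT.

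The genes next to the array in the genome were measured as well. On the low-coordinate side AT2G04039 overlaps DTX1 by 297 bases on the other strand. AT2G04039 averaged 18.6 CPM in the triple mutant, 14.9 CPM in the double mutant and 21.5 CPM in WT, and fell in the double mutant by -0.54 ± 0.06 on the log2 scale (adjusted p = 2.1e-08, edgeR), the opposite direction to DTX1. AT2G04060, annotated as a glycosyl hydrolase, and AT2G04063, a glycine-rich protein, lie between AT2G04050 and AT2G04066 and had 3 counts and 1 count in total over the 15 libraries. Of the 5 genes on each side of AT2G04050 in locus order, those with the next lower numbers, AT2G04042, AT2G04043, AT2G04045, AT2G04046 and AT2G04047, lie beyond DTX1 in the genome. These transposable element and defensin-like genes had 0 to 11 counts in total. The bZIP48 gene AT2G04038 had 2 counts and the transposable element gene AT2G04036 had 5. None of these near-silent neighbours showed the counts that DTX1, AT2G04050 and AT2G04070 had in the double mutant.

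**Figure D2:**
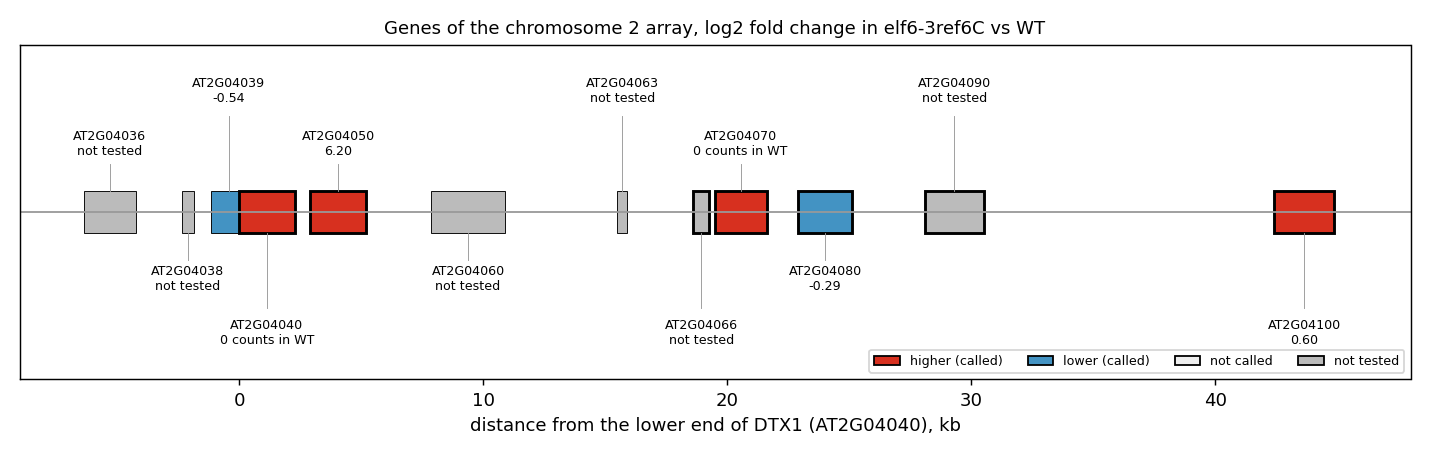
Map of the chromosome 2 array by distance in kb from the lower end of DTX1, with thick outlines for MATE efflux genes and colours for the call in elf6-3ref6C against WT. The numbers are log2 fold changes: 6.20 for AT2G04050, with DTX1 and AT2G04070 also higher (0 counts in WT, so no fold is given), and -0.29 for AT2G04080.

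The array's genes are close copies. Coding sequences of AT2G04050 and AT2G04070 were 90.3% identical, DTX1 was 87.8% and 87.3% identical to that pair, and AT2G04080 was 86.9% to 87.8% identical to the 3 of them. AT2G04090 and AT2G04100 were 91.0% identical to each other and 72.6% to 74.2% to the full-length others. Of all 50-base windows in its exons, AT2G04050 shared 3.53% exactly with another annotated gene, AT2G04070 3.24%, AT2G04080 17.21% and DTX1 21.49%. For DTX1 this includes the stretch that AT2G04039 overlaps, and for AT2G04066 it was 67.45%, shared with AT2G04080. The sources used here do not say how reads that fit several genes were divided or if counting was by strand. The split among these copies is therefore uncertain. AT2G04070 had 32, 24 and 31 counts in the double mutant against 330, 356 and 437 for AT2G04050, with which it shares windows. Even a small share of windows could thus weigh on the AT2G04070 counts.

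Over the whole family, 42 of 55 members passed the filter on low counts and were tested. The other 13 had 11 to 94 counts over all 15 libraries. DTX1, AT2G04050, AT2G04070 and AT4G21903 passed with no WT library at the filter's limit of 0.347 CPM. They passed through mutant libraries, so a level above WT was part of how they were admitted, and no support is drawn from their place among the higher members. Against WT, 12 members rose and 18 fell in the triple mutant, where 32% and 34.4% of all 22411 tested genes did. In the double mutant 14 rose and 23 fell, against 33.7% and 34.8% of tested genes. In ref6C 7 rose and 12 fell, against 18.4% and 20.4%, and the 7 were 4 without WT replicate 3 or without ref6C replicate 1. In ref6-3 9 rose and 19 fell, against 16.2% and 18.5%. As shares of the tested members, the fallen made up 42.9% in the triple mutant, 54.8% in the double mutant, 28.6% in ref6C and 45.2% in ref6-3, each above the share of all tested genes. AT1G66780 is among the fallen in the triple mutant, the double mutant and ref6-3. It passed the filter only through WT and ref6C libraries, so it lends no weight there. The shares that rose were 28.6%, 33.3%, 16.7% and 21.4% in that order, near those of all tested genes.

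Most of these differences were small. The median log2 fold change of the tested members was -0.19 in the triple mutant, -0.17 in the double mutant, -0.02 in ref6C and -0.10 in ref6-3, where the median of all tested genes was -0.01, -0.00, 0.00 and 0.00. With genes at 0 counts in WT set to their bound, and those at or under the floor in both groups left out, the medians over 42, 42, 41 and 40 members were -0.19, -0.17, -0.02 and -0.11. At least 2-fold rises numbered 4 in the triple mutant (3% of all tested genes), 4 in the double mutant (3.76%), 1 in ref6C (1.2%) and 0 in ref6-3 (0.678%). All of these rises were in DTX1, AT2G04050, AT2G04070 and AT4G21903, the members admitted through mutant libraries. Their counts are therefore not read against the shares of all tested genes. Falls of at least 2-fold numbered 7 (10.1%), 10 (9.93%), 1 (3.34%) and 5 (4.99%). AT1G66780, admitted through WT and ref6C libraries, is in these counts for the triple mutant, the double mutant and ref6-3 and lends them no weight. The count of 0 rises in ref6-3 was also 0 at an unadjusted p below 0.05 and with DESeq2. Summed over all 55 members, the family took 675 ± 5.1 CPM in the triple mutant, 696 ± 9.5 in the double mutant, 781 ± 6.0 in ref6C, 722 ± 10 in ref6-3 and 752 ± 9.4 in WT (SD, n = 3 each). The 3 libraries of each mutant did not overlap those of WT, and the exact 2-sided permutation test gave p = 0.1 for each of the 4 comparisons with WT, the smallest value 3 against 3 libraries allow.

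**Figure D3:**
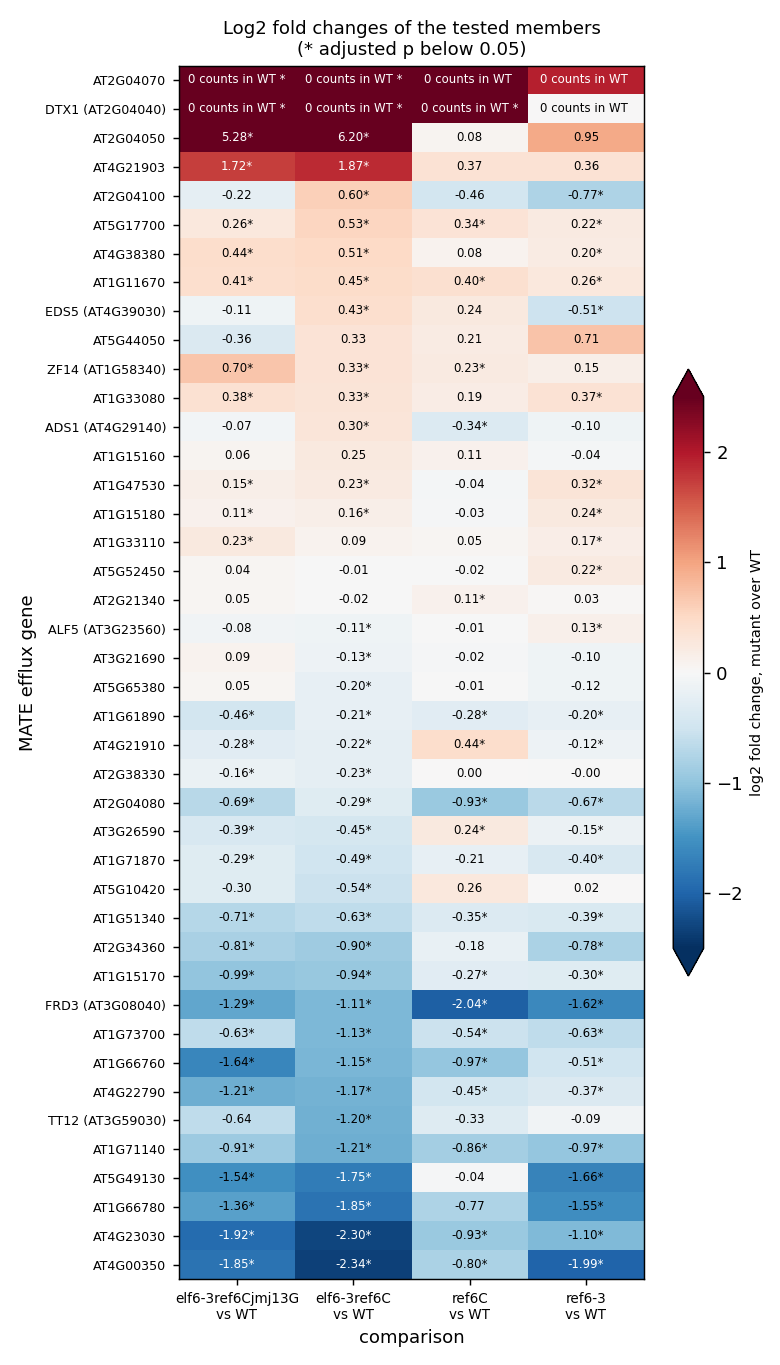
Log2 fold changes of the 42 tested members (rows) in each mutant over WT (columns), from red for higher to blue for lower, with an asterisk at an adjusted p below 0.05. DTX1 and AT2G04070 are marked as having 0 counts in WT, where the colour is of a fitted value and no fold is read from it; 11 members were called lower in every column and 2 were called higher in every column.

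By direction, 11 members fell in all 4 mutants: AT1G15170, AT1G51340, AT1G61890, AT1G66760, AT1G71140, AT1G73700, AT2G04080, FRD3, AT4G00350, AT4G22790 and AT4G23030. They were 26.2% of the tested members, where 8.78% of all tested genes fell in all 4. Only AT1G11670 and AT5G17700 were called higher in all 4, by 0.26 to 0.45 and 0.22 to 0.53 on the log2 scale, which is 4.76% of members and 5.95% of tested genes. AT1G15160 and AT5G44050 were called in none, against 17.1% of tested genes. Called higher in 1 mutant and lower in another were 6 members, AT2G04100, ALF5, AT3G26590, AT4G21910, ADS1 and EDS5, or 14.3% of members against 8.2% of tested genes. The 4 comparisons share their WT libraries, so a direction common to them is not independent support.

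By size, 10 members (23.8%) were lower by at least 2-fold in 1 or more mutants, against 13% of tested genes. AT1G66780 is among the 10, and a level below WT was part of how it was admitted, so it lends no weight to this comparison. AT4G00350 had 3.57, 3.70 and 3.72 CPM in the triple mutant, 3.01, 2.27 and 2.56 in the double mutant, 6.81, 8.35 and 7.64 in ref6C, 3.67, 3.03 and 3.25 in ref6-3, and 13.7, 13.1 and 12.8 in WT. The ref6C libraries lay between WT and the other mutants and overlapped neither. Its log2 fold change against WT was -1.85 ± 0.09, -2.34 ± 0.10, -0.80 ± 0.08 and -1.99 ± 0.09 in the triple mutant, the double mutant, ref6C and ref6-3, with adjusted p of 6.3e-09 or below (edgeR).

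AT5G49130 had 3.60, 3.30 and 4.65 CPM in the triple mutant, 2.97, 3.38 and 3.64 in the double mutant, 10.3, 11.8 and 10.8 in ref6C, 4.57, 2.90 and 3.25 in ref6-3, and 11.3, 12.3 and 10.1 in WT. Here ref6C overlapped WT and did not pass the test (-0.04 ± 0.10, adjusted p = 0.8, edgeR), while the other 3 mutants overlapped one another well below. AT5G49130 fell by -1.54 ± 0.12, -1.75 ± 0.12 and -1.66 ± 0.12 on the log2 scale in the triple mutant, the double mutant and ref6-3, with adjusted p of 1.4e-11 or below. It overlaps AT5G49138 on the other strand over 1916 bases, and 88.37% of its 50-base windows lie in both, so without knowledge of strand the 2 genes' reads cannot be told apart. The 2 ref6 alleles differed for both genes: ref6C was higher than ref6-3 by 1.2 ± 0.10 for AT4G00350 (adjusted p = 2.3e-10, edgeR) and by 1.62 ± 0.12 for AT5G49130 (adjusted p = 2.8e-11, edgeR). The summed mature pollen markers were ordered alike, with 152 to 232 CPM over the triple mutant, the double mutant and ref6-3, 564 to 579 CPM in ref6C and 688 to 724 CPM in WT, while STP11, BCP1 and ANX2 were at least 2-fold lower in ref6C too, and their part in the result was not tested. In bulk RNA of whole buds, fewer cells of a type and less RNA per cell cannot be told apart.

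AT4G23030 averaged 0.861 ± 0.08 CPM in the triple mutant, 0.647 ± 0.18 in the double mutant, 1.71 ± 0.15 in ref6C, 1.52 ± 0.15 in ref6-3 and 3.25 ± 0.16 in WT (SD, n = 3 each). Its WT libraries stood above all others and the double and triple mutants below the single mutants. AT1G66760 showed a step at each genotype, 5.34 ± 0.15, 7.51 ± 0.50, 8.49 ± 0.36, 11.7 ± 0.75 and 16.7 ± 0.62 CPM in the same order. It fell by -1.64 ± 0.07 on the log2 scale in the triple mutant (adjusted p = 2.1e-17, edgeR), and was lower there than in the double mutant by -0.49 ± 0.08 (adjusted p = 4.9e-05). The step between the double mutant and ref6C was the weakest (-0.18 ± 0.07, adjusted p = 0.037) and was lost under 7 of 21 alternative settings, among them without ref6C replicate 3.

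AT4G22790 averaged 7.42 ± 0.58 and 7.67 ± 0.90 CPM in the triple and double mutants, 12.6 ± 0.22 and 13.3 ± 0.65 CPM in ref6C and ref6-3, and 17.2 ± 0.96 CPM in WT. For AT1G73700 the double mutant was lowest, with 3.90 ± 0.44 CPM against 8.44 ± 0.52 CPM in WT, and the triple mutant was higher than the double by 0.49 ± 0.10 on the log2 scale (adjusted p = 0.00068, edgeR). AT1G71140 fell to 2.74 ± 0.11, 2.21 ± 0.08, 2.83 ± 0.12 and 2.62 ± 0.27 CPM in the triple mutant, the double mutant, ref6C and ref6-3, against 5.13 ± 0.17 CPM in WT, with log2 fold changes of -1.21 to -0.86. AT1G66780 was near the limit of detection, with 0.172 ± 0.11, 0.116 ± 0.07, 0.252 ± 0.10, 0.146 ± 0.03 and 0.430 ± 0.15 CPM in the 5 genotypes in the usual order. It passed the filter through 2 WT libraries and 1 ref6C library, so a level below WT in the other mutants was part of how it was admitted, and no support is drawn from its falls. Its calls in the triple mutant and ref6-3 were lost with DESeq2 and on leaving out some single libraries, which include triple mutant replicate 1, ref6-3 replicate 3 and WT replicate 1.

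**Figure D4:**
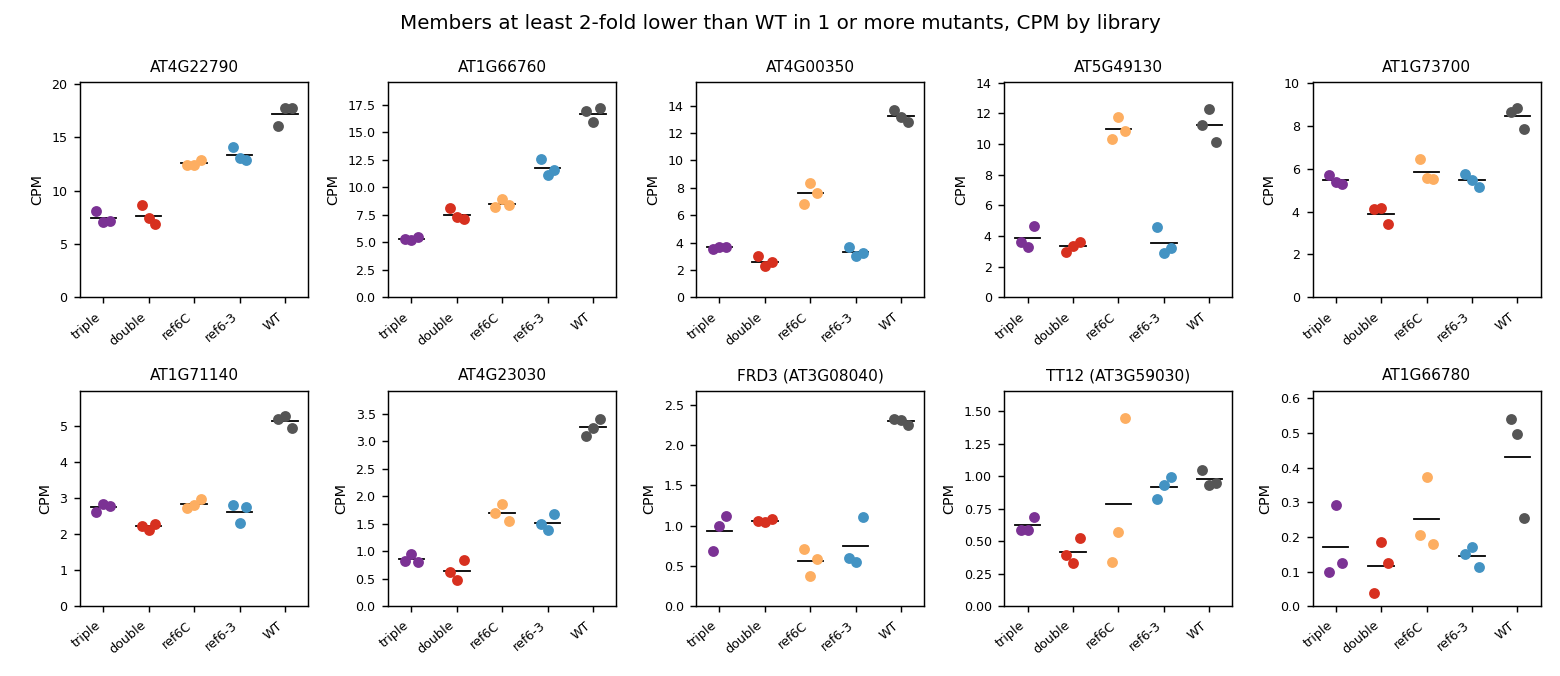
CPM by library (points) and mean (bars) of the 10 members that were at least 2-fold lower than WT in 1 or more mutants, each on a linear axis from 0; triple is elf6-3ref6Cjmj13G and double is elf6-3ref6C. For AT5G49130 the ref6C libraries sit at 10.3 to 11.8 CPM beside WT, and for TT12 ref6C replicate 3 stands apart at 1.45 CPM.

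Among the members with a known cargo, FRD3 (AT3G08040), which loads citrate into the xylem so that iron can travel to the shoot, fell in every mutant. FRD3 had 0.687, 0.990 and 1.12 CPM in the triple mutant, 1.05, 1.04 and 1.08 in the double mutant, 0.715, 0.372 and 0.579 in ref6C, 0.599, 0.551 and 1.11 in ref6-3, and 2.33, 2.31 and 2.25 in WT. No mutant library reached the WT range. On the log2 scale FRD3 changed by -1.29 ± 0.21, -1.11 ± 0.21, -2.04 ± 0.23 and -1.62 ± 0.22 in the triple mutant, the double mutant, ref6C and ref6-3 (adjusted p of 3.5e-05 or below, edgeR), and the double mutant was above ref6C by 0.93 ± 0.27 (adjusted p = 0.0043). FRD3 was the single member at least 2-fold lower in ref6C than in WT. AT1G51340, the member closest to FRD3 in coding sequence (60.4% identical), also fell in all 4 mutants, to 2.21 ± 0.16, 2.33 ± 0.10, 2.83 ± 0.25 and 2.76 ± 0.17 CPM, against 3.63 ± 0.56 CPM in WT, with single-mutant calls that were lost under 6 (ref6C) and 4 (ref6-3) of 21 alternative settings. Leaving out ref6C replicate 3 was among the 6. Of 21 listed genes of iron handling 15 were tested, and against WT 2 rose and 10 fell in the triple mutant, 2 and 7 in the double mutant, 2 and 9 in ref6C, and 1 and 8 in ref6-3. Of all tested genes 32% rose and 34.4% fell in the triple mutant, 33.7% and 34.8% in the double mutant, 18.4% and 20.4% in ref6C, and 16.2% and 18.5% in ref6-3. IRT1, the iron uptake transporter, averaged 5.54 ± 0.36 CPM in the triple mutant, 6.14 ± 0.59 in the double mutant, 6.94 ± 0.44 in ref6C, 7.30 ± 0.68 in ref6-3 and 11.7 ± 0.36 in WT, and fell in all 4 (adjusted p of 8.5e-08 or below, edgeR). YSL1, a carrier of metal-nicotianamine complexes, fell in all 4 as well, and the phloem transporter OPT3 rose in all 4, by 0.38 to 0.51 on the log2 scale. The list's median log2 fold change lay between -0.28 and -0.09 over the 4 mutants.

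TT12 (AT3G59030), which carries flavonoid precursors of the seed coat pigments into the vacuole, fell in the double mutant. TT12 had 0.589, 0.587 and 0.687 CPM in the triple mutant, 0.390, 0.334 and 0.525 in the double mutant, 0.341, 0.574 and 1.45 in ref6C, 0.823, 0.931 and 0.993 in ref6-3, and 1.05, 0.935 and 0.944 in WT. Its fall in the double mutant was -1.2 ± 0.35 on the log2 scale (adjusted p = 0.0037, edgeR), and the other 3 mutants did not pass the test against WT. The ref6C libraries overlapped those of the double mutant, and replicate 3 was the highest of the 15. With it ref6C differed from WT by -0.33 ± 0.31 (adjusted p = 0.43, edgeR), and without it by -1.08 (adjusted p = 0.0036, edgeR), which passed the test. In the authors' deposited table, made without that library, the value was -0.62 (adjusted p = 0.0331, as deposited), and its size is not compared with those here. The difference between the double mutant and ref6C (-0.87 ± 0.37, adjusted p = 0.043, edgeR) ran from -1.23 to -0.11 over the alternative settings, and its call was lost under 5 of them, among them those without ref6C replicate 3 and without double mutant replicate 1 or 2. Of 19 listed flavonoid pathway genes 17 were tested, and against WT 2 rose and 10 fell in the triple mutant, 2 and 12 in the double mutant, 9 and 0 in ref6C, and 3 and 4 in ref6-3, set against the same shares of all tested genes (32% and 34.4%, 33.7% and 34.8%, 18.4% and 20.4%, 16.2% and 18.5%). Flavanone 3-hydroxylase (F3H) averaged 147 ± 0.78 CPM in the triple mutant and 115 ± 1.2 CPM in the double mutant, against 206 ± 4.7 CPM in WT, and FLS1, flavonol synthase, averaged 267 ± 4.6 and 211 ± 9.1 CPM against 331 ± 4.0 CPM. Going the other way, DFR, which opens the branch to anthocyanins and proanthocyanidins, rose in all 4 mutants, to 1.36 ± 0.08, 1.89 ± 0.25, 0.96 ± 0.19 and 1.07 ± 0.18 CPM, against 0.131 ± 0.03 CPM in WT. The list's median log2 fold change was -0.30 in the triple mutant, -0.40 in the double mutant, 0.18 in ref6C and -0.09 in ref6-3. The 14 tapetum markers, from a tissue that makes flavonoids for pollen, all fell in the triple mutant, the double mutant and ref6C, to sums of 1349 to 1681 CPM against 2282 to 2379 CPM in WT, and their part in these results was not tested.

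EDS5 (AT4G39030), the chloroplast exporter of salicylic acid or its precursor, had 3.80, 2.68 and 3.87 CPM in the triple mutant, 5.03, 5.31 and 4.85 in the double mutant, 4.29, 4.22 and 4.78 in ref6C, 2.58, 2.48 and 2.86 in ref6-3, and 3.57, 3.68 and 4.03 in WT. The double mutant stood above WT and ref6-3 below it, while the triple mutant overlapped WT. EDS5 rose by 0.43 ± 0.12 on the log2 scale in the double mutant (adjusted p = 0.0019, edgeR) and fell by -0.51 ± 0.13 in ref6-3 (adjusted p = 0.0029, edgeR), and it was lower in the triple than in the double mutant by -0.54 ± 0.12 (adjusted p = 0.0012). The 9 listed genes of salicylate synthesis and its control were all tested: 5 rose and 3 fell in the triple mutant, 5 and 3 in the double mutant, 0 and 6 in ref6C, and 2 and 2 in ref6-3, where the shares of all tested genes were 32% and 34.4%, 33.7% and 34.8%, 18.4% and 20.4%, and 16.2% and 18.5%. SARD1, a transcription factor that turns on salicylate synthesis, averaged 8.95 ± 0.32 CPM in the triple mutant, 14.4 ± 0.93 in the double mutant, 1.72 ± 0.15 in ref6C, 2.70 ± 0.39 in ref6-3 and 2.21 ± 0.35 in WT. Its partner CBP60G averaged 1.64 ± 0.21, 3.40 ± 0.33, 0.336 ± 0.03, 0.489 ± 0.12 and 0.299 ± 0.10 CPM in the same order. ICS2, an isochorismate synthase, fell in all 4 mutants and most in the double mutant (-1.86 ± 0.15, adjusted p = 1.8e-11, edgeR). PBS3 of the same list was also lower, at 10.2 to 11.5 CPM over the double and triple mutants against 18.3 to 20.1 CPM in WT. ICS1, the other isochorismate synthase listed, overlapped WT, at 7.65 to 10.4 CPM over the double and triple mutants against 7.89 to 9.94 CPM. PAD4, EDS1 and NPR1 of the list did lie above WT in the double and triple mutants. PAD4 had 19.3, 17.7 and 19.7 CPM in the double mutant against 8.63, 8.16 and 7.45 in WT. EDS1 had 47.7, 48.3 and 45.1 CPM against 31.6, 30.7 and 29.7, and NPR1 24.7, 24.4 and 25.1 CPM against 19.2, 20.5 and 18.5. The rises of SARD1 and CBP60G were thus shared by part of the list and not by ICS2, PBS3 or ICS1.

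ALF5 (AT3G23560), which protects roots from toxic compounds, lay at 26.2 to 34 CPM over all 15 libraries. Its calls, higher in ref6-3 (0.13 ± 0.05, adjusted p = 0.024, edgeR) and lower in the double mutant (-0.11 ± 0.05, adjusted p = 0.033), were lost under 3 and 5 of 21 alternative settings. Its tandem neighbour AT3G23550 had too few counts to be tested. ZF14 (AT1G58340), whose overexpression is known to stunt and bleach plants, averaged 8.26 ± 0.31 CPM in the triple mutant, 6.40 ± 0.27 in the double mutant, 5.94 ± 0.29 in ref6C, 5.64 ± 0.26 in ref6-3 and 5.06 ± 0.47 in WT. ZF14 was 0.70 ± 0.08 higher on the log2 scale in the triple mutant than in WT (adjusted p = 2.6e-08, edgeR) and 0.37 ± 0.08 higher there than in the double mutant (adjusted p = 0.0013). ADS1 (AT4G29140), a member that alters plant architecture when overexpressed, was higher in the double mutant (7.03 ± 0.47 CPM) than in ref6C (4.50 ± 0.32 CPM), by 0.64 ± 0.12 on the log2 scale (adjusted p = 2.7e-05, edgeR), with 5.42 ± 0.54 CPM in the triple mutant and 5.66 ± 0.96 CPM in WT. DTX50 (AT5G52050), an exporter of abscisic acid, averaged 0.0469 to 0.121 CPM in the mutants and 0.297 CPM in WT and was not tested.

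Levels of different members were compared as FPKM, which corrects for transcript length. Each mutant had 14 members at 10 FPKM or more, 18 between 1 and 10 FPKM and 23 below 1 FPKM, and WT had 14, 20 and 21 members in these classes. AT4G21910 was the highest member in every genotype, with 66.1 ± 1.9 FPKM in the triple mutant, 67.5 ± 1.7 in the double mutant, 109 ± 1.6 in ref6C, 74.0 ± 2.8 in ref6-3 and 80.9 ± 2.0 in WT (SD, n = 3 each). It made up 17.4%, 17.4%, 24.8%, 18.1% and 18.8% of the family's summed FPKM in that order. The next in WT were AT1G61890 with 41.9 FPKM, AT1G47530 with 35.1, AT2G38330 with 23.2, AT2G21340 with 21.9, AT3G26590 with 21.3 and ALF5 with 17.9 FPKM. AT2G04050 reached 9.57 ± 0.21 FPKM in the double mutant and 5.12 ± 0.41 FPKM in the triple mutant, against 0.123 ± 0.06 FPKM in WT, and so lay in the double mutant just below the 10 FPKM class.

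**Figure D5:**
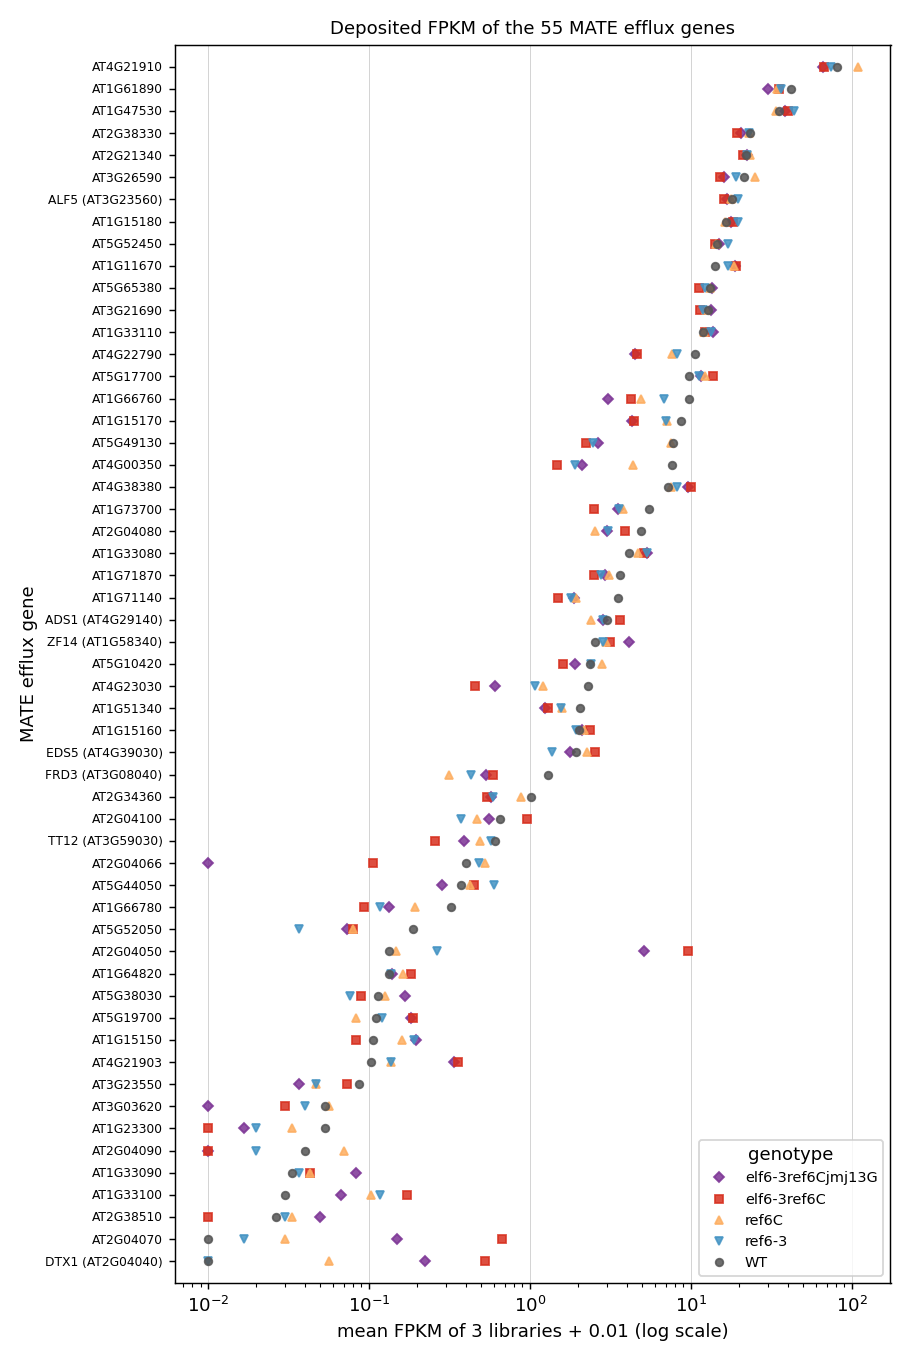
Deposited FPKM of all 55 members (rows, ordered by their WT mean), as the mean of 3 libraries plus 0.01 on a log axis, with 1 symbol a genotype. AT4G21910 lies at the top in every genotype, at 109 FPKM in ref6C and 80.9 FPKM in WT, and AT2G04050 lies at 9.57 FPKM in elf6-3ref6C and 0.123 FPKM in WT.

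The abundant members moved little, and ref6C differed from the other mutants in some of them. AT4G21910 rose in ref6C by 0.44 ± 0.03 on the log2 scale (adjusted p = 2.1e-12, edgeR) and fell by -0.28 ± 0.03, -0.22 ± 0.03 and -0.12 ± 0.03 in the triple mutant, the double mutant and ref6-3 (adjusted p of 0.0028 or below). AT3G26590 had 27.6 ± 1.1, 26.5 ± 0.58, 42.9 ± 1.7, 32.6 ± 1.2 and 36.2 ± 1.5 CPM in the 5 genotypes in the same order, with ref6C above WT and the other 3 mutants below it. AT1G61890 fell in all 4 mutants, by -0.46 ± 0.03 in the triple mutant and -0.20 ± 0.03 to -0.28 ± 0.03 in the others. AT1G47530 rose in the triple mutant, the double mutant and ref6-3 by 0.15 ± 0.03, 0.23 ± 0.03 and 0.32 ± 0.03. AT2G21340 lay between 39.3 and 46.1 CPM in all libraries, and its call in ref6C (0.11 ± 0.04, adjusted p = 0.04, edgeR) was lost under 6 of 21 alternative settings.

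Between mutants, the double mutant set against ref6C bears on what the added elf6-3 allele goes with. In that comparison 12 members were higher and 19 lower, where 30.7% and 30.6% of all tested genes were. Of these, 5 were at least 2-fold higher (3.31% of tested genes) and 3 at least 2-fold lower (5.7%). The 5 were AT2G04050, DTX1, AT2G04070, AT2G04100 and AT4G21903, and the 3 were AT4G00350, AT5G49130 and AT4G23030. Of the 5, all but AT2G04100 reached the filter's limit in no ref6C library. A level above ref6C was part of how those were admitted, so the 5 are not read against the share of tested genes. AT4G21903, the tandem neighbour of the abundant AT4G21910, had 0.484 ± 0.15 and 0.527 ± 0.05 CPM in the triple and double mutants and 0.186 ± 0.06, 0.187 ± 0.10 and 0.141 ± 0.06 CPM in ref6C, ref6-3 and WT. The count of 19 lower members was 12 with DESeq2 and 13 without ref6C replicate 3.

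The triple mutant set against the double mutant bears on the jmj13G allele. Here 5 members were higher and 10 lower, where 8.58% and 11.4% of tested genes were, and 0 and 2 of them by at least 2-fold (0.419% and 0.879%). The 2 were AT2G04070 and DTX1, and the DTX1 call (-1.27 ± 0.37, adjusted p = 0.016, edgeR) was lost with DESeq2 and without triple mutant replicate 2 or 3 or double mutant replicate 1. AT2G04070 reached the filter's limit in 3 double and 0 triple mutant libraries, and DTX1 in 3 and 1. A higher level in the double mutant was part of how both were admitted, so the 2 are not read against the share of tested genes. The count of 0 was also 0 at an unadjusted p below 0.05 and with DESeq2. The 2 ref6 alleles were set against each other last: 7 members were higher and 5 lower in ref6C than in ref6-3 (17.2% and 16.8% of tested genes), 3 and 0 of them by at least 2-fold (3.49% and 0.991%). AT5G49130 and AT4G00350 were 2 of the 3, and the third call, DTX1, rested on 6 counts in ref6C and none in ref6-3 and was lost under 12 of 21 alternative settings. Its count of 0 at least 2-fold lower was also 0 at an unadjusted p below 0.05 and with DESeq2.

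By position, 21 members stood in 6 tandem groups with gaps of at most 20 kb, of which the chromosome 2 array is the largest with 7. Within a group, members could differ in direction. In the group of 4 on chromosome 1 (AT1G15150, AT1G15160, AT1G15170 and AT1G15180), AT1G15170 fell in all 4 mutants, by up to -0.99 ± 0.09 on the log2 scale in the triple mutant (adjusted p = 3.2e-10, edgeR), AT1G15180 rose by 0.11 to 0.24 in the triple mutant, the double mutant and ref6-3, AT1G15160 was called in none, and AT1G15150 was not tested. In the pair AT1G66760 and AT1G66780 both members were called lower in the triple mutant, the double mutant and ref6-3. AT1G66780 was admitted through WT and ref6C libraries, so no support for a shared direction is drawn from its falls. In the group AT1G33080 to AT1G33110 the 2 tested members, the first and the last, both rose in the triple mutant (0.38 ± 0.07 for AT1G33080 and 0.23 ± 0.05 for AT1G33110) and in ref6-3. Exact sequence sharing touched 25 of 55 members in at least 1 window of 50 bases, and 9 of them in over 10% of their windows.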

How the data were processed

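Counts per gene and library were deposited by the authors as whole numbers without normalization, beside FPKM values made with RSEM, per the file headers. The authors' log2 fold changes and adjusted p-values, deposited per mutant, are WT over mutant by their values and were turned here; per the file headers they leave out ref6C replicate 3. Tools in the submitters' processing notes are RSEM 1.2.22, STAR and DESeq2, and the build is TAIR10. Libraries were made with a stranded total RNA kit, per the labels' protocols. The test was edgeR's quasi-likelihood F-test (edgeR 4.0.16, R 4.3.3) with TMM scaling, filterByExpr by group and all 15 libraries in 1 fit, and a call needed a Benjamini-Hochberg adjusted p under 0.05 among 22411 genes. The plan allowed for rounding, but the counts were already whole. The biological coefficient of variation was 2.51%, so small differences passed the test. Replicate numbers come from the titles. Since nothing says that they were separate plants, the p-values reflect library-to-library spread that may be technical. Replicates differed by 1.41 to 2.81 times Poisson noise (chi-square over degrees of freedom). Levels are means ± SD, fold changes ± SE; bounds and intervals cover counting error only. Upstream stretches and coding identity were read from RefSeq TAIR10.1 with its annotation, which lists all 55 members, using Biopython 1.88. The tests were tried on simulated counts. Alternatives were DESeq2 1.42.0, other scaling and filters, fits of 2 groups, a replicate block and leaving out each library. Named are AT2G04050 and its neighbours, characterised members, members changed at least 2-fold and the leading called genes of each pathway list. The abundant, tandem and consistently changed members and ICS1 were added after their values were seen. The members and all lists were chosen with earlier results of these data known. From the lists, 3 symbols were dropped because the reference does not give them.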

Additional observations from a re-analysis of the deposited data

How the results depend on the processing

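Over 21 alternative settings, 172 calls among 294 member fold changes were examined, and none changed direction. At least once, 34 calls were lost, 5 of them at least 2-fold (DTX1 in ref6C against WT, in ref6C against ref6-3 and in the triple against the double mutant; AT1G66780 in ref6-3 and in the triple mutant against WT). Counts of called members stayed within 1.5 times the reported ones except in these cases, whose cause was not tested. Members higher in ref6C than in WT numbered 7, and 4 without WT replicate 3 as well as without ref6C replicate 1, so leaving out 1 library gave 4 to 7. Members lower in the double mutant than in ref6C numbered 19, and 12 with DESeq2; leaving out 1 library gave 13 to 19, the lowest without ref6C replicate 3, where 12 calls over all comparisons were lost. With the replicate number as a block, members lower in ref6-3 than in WT numbered 18 and higher ones 10, and members higher in ref6C than in ref6-3 numbered 6; 2 calls were lost and 1 was gained. Residuals of same-numbered libraries correlated at -0.107 to 0.101 (30 pairs), so the numbers are not taken to pair the libraries. The authors' deposited table gave the same sign and an adjusted p below 0.05 to 28 of 30 calls in the triple mutant, 33 of 37 in the double mutant, 13 of 19 in ref6C and 24 of 28 in ref6-3. Depth limits the 13 untested members and the fold changes of DTX1, AT2G04070, AT2G04066 and AT1G66780, and sequence sharing limits the split of reads within the chromosome 2 array.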
